A study of Homo sapiens with 8 samples.

Results

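Interferon-stimulated genes are the genes that cells switch on when interferon signals through its receptors. The genes described here are 35 such genes, chosen by name as a set of commonly induced members, in 9 groups by role. Earlier results of these data were known when they were chosen. Of the 35 genes, 34 had a probe set assigned to 1 gene symbol, out of 19775 genes with such a probe set on the array, and STAT2 is not analysed here. Each gene was represented by its brightest probe set. With the filter on dim genes, a mean at a scaled signal of about 13.8, 27 members and 12735 genes in all were tested. The 7 members below it (OASL, IFI44, IFI44L, XAF1, SAMD9L, BST2 and TRIM22) are given by their signals alone.

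The arrays came from 2 established colon cancer cell lines, each kept in normoxia (21% O2) or in hypoxia (1% O2) for 12 h. Each of the 4 groups had 2 arrays. DKS5 carries mutant K-ras, and the labels describe DKO3 both as a K-ras knockout and as wild-type. Each genotype is 1 line, so K-ras status and any other difference between the lines cannot be told apart, and K-ras expression is not analysed here. No group was given interferon, and all groups shared standard growth medium and harvest below full confluency. The design text says that the conditions were repeated, without saying that the cultures were independent. The p-values therefore reflect the spread between these samples alone, possibly a technical one, and the number of arrays limits the precision. An array reports a mean over many cells, so fewer expressing cells and less RNA per cell cannot be told apart.

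Type I and type III interferons act through paired receptors and the kinases JAK1 and TYK2, and lead to the binding of a complex with STAT2 and IRF9 to interferon-stimulated response elements. The induced proteins include RNA-binding IFIT proteins, oligoadenylate synthetases, MX GTPases, the ubiquitin-like modifier ISG15 and sensors that recognise viral RNA. Epithelial cells hold a low basal level of many of these transcripts without added interferon.

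A control measure of RNA quality differed between the lines and within DKO3. The ratio of 3′ to 5′ signal of the ACTB control probe sets, which rises as RNA is degraded or shortened in amplification, was 25.6 to 55.1 on the 4 DKS5 arrays. It was 49.0 and 14.9 in DKO3 normoxia and 11.47 and 11.02 in DKO3 hypoxia. Of 12 colon epithelial markers 8 were bright enough to test, and the epithelial adhesion gene EPCAM had signals of 5315 to 7749. CDX1, CEACAM5, LGALS4 and GPA33 were below the filter. Epithelial markers also differed between the lines, with 2 of the 8 lower in DKS5 and 1 higher. The keratin gene KRT20 had 6.19 to 15.5 in DKS5 and 301 to 445 in DKO3 (log2 difference -4.01; adjusted p = 4.27e-09), and KRT19 differed by -0.96 (adjusted p = 0.00191). The microvillus gene VIL1 was higher in DKS5, at 54.7 to 103 against 12.8 to 17.5 (1.65; adjusted p = 2.29e-05). Their part in the results on the members was not tested. None of 11 leukocyte markers was bright enough to test, and their summed signal was 35.4 to 62.2 in DKS5 and 33.1 to 76.2 in DKO3. None of 3 plasmacytoid dendritic cell markers was either, at sums of 15.0 to 30.5 and 22.2 to 26.0. The fibroblast marker COL1A1 and the erythroid marker HBB were tested and not called between the lines, and no endothelial marker was bright enough. The low oxygen was visible in both lines: of 11 tested hypoxia genes, 10 rose in DKS5 and 7 in DKO3.

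The comparison of the lines asked which of these genes differ with the K-ras label, at either oxygen level. Of the 27 tested members, 12 were called lower in DKS5 than in DKO3 and none was called higher, with IFIT1, IFIT2, IFIT3 and SAMD9 at the head. Averaged over both oxygen levels, 12 of the 27 tested members (44.4%) were lower at an adjusted p under 0.05, against 6.14% of all tested genes lower and 9.12% called in either direction. The members' median log2 difference, DKS5 minus DKO3, was -0.38, and that of all tested genes was -0.01. On 11 tested members all 4 DKS5 arrays lay below all 4 DKO3 arrays, and on 0 above. Among all genes 8.46% had all 4 DKS5 arrays below. A pair of members (OAS2 and IFI35) had a DKS5 mean under the brightness filter and a DKO3 mean above it. Their difference between the lines is therefore partly set by the filter. Of the other 25 tested members, 11 were lower. The members were chosen with earlier results of these data known, so these shares are no independent test.

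**Figure D1:**
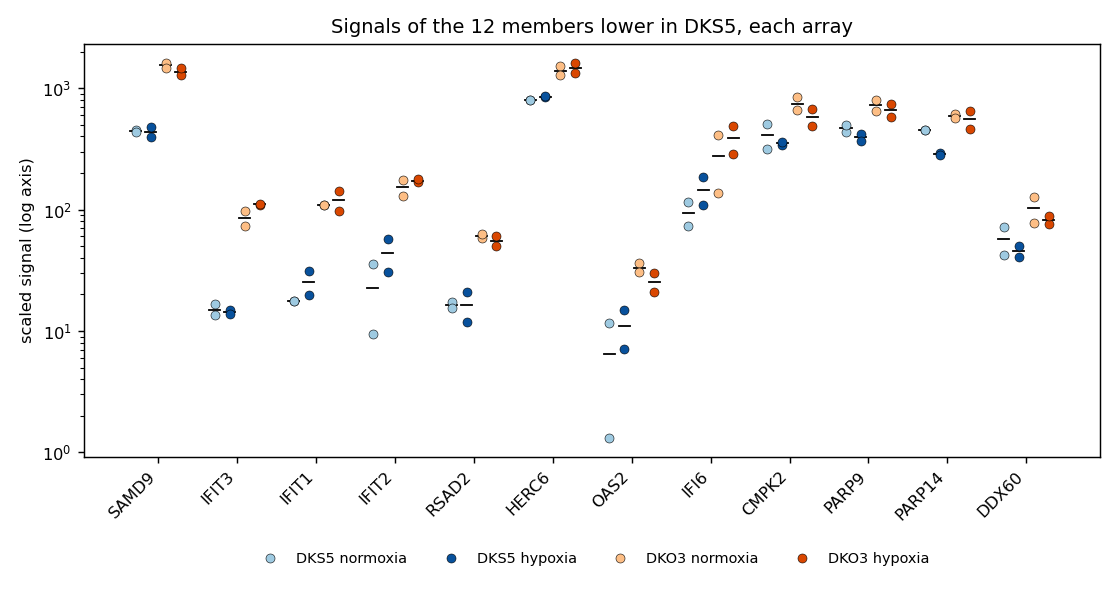
Scaled signal on a log axis for the 12 members lower in DKS5, with 1 point per array, bars at group means and the 4 groups side by side. For most genes the DKS5 points of both oxygen levels lie below all DKO3 points, while IFI6 and CMPK2 overlap between the lines.

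The IFIT proteins bind foreign RNA and form complexes with each other, and 3 of the 4 family members were lower in DKS5. IFIT1, which recognises RNA with an incompletely methylated cap, had scaled signals of 17.6 and 17.7 in DKS5 normoxia and 19.8 and 31.3 in DKS5 hypoxia. In DKO3 it had 109 and 108 in normoxia and 97.8 and 143 in hypoxia. The lines did not overlap, and the log2 difference, DKS5 minus DKO3, was -1.80 ± 0.18 (SE; 4 arrays per line; 3.48-fold; adjusted p = 1.23e-05). IFIT2, a partner of IFIT1 and IFIT3, had 9.49 and 35.7 in DKS5 normoxia, 30.6 and 57.3 in DKS5 hypoxia, 176 and 129 in DKO3 normoxia, and 168 and 178 in DKO3 hypoxia. Its lowest array, DKS5 normoxia replicate 1, stood apart from its replicate, yet all DKS5 arrays were below all DKO3 arrays. The difference was -1.94 ± 0.23 (3.85-fold; adjusted p = 5.33e-05). IFIT3, which stabilises IFIT1 on RNA, had 13.4 and 16.6 in DKS5 normoxia, 14.9 and 13.8 in DKS5 hypoxia, 96.9 and 73.7 in DKO3 normoxia, and 110 and 112 in DKO3 hypoxia. The 4 DKS5 arrays lay close together near the brightness filter, and the difference was -1.88 ± 0.17 (3.69-fold; adjusted p = 3.65e-06). These sizes depend on the pseudocount of 16, since DKS5 signals were so dim: with 1 in its place IFIT1 differed by -2.38, IFIT2 by -2.48 and IFIT3 by -2.65.

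IFIT5, which binds triphosphorylated RNA, gave no call. Its signals were 237 and 254 in DKS5 normoxia, 208 and 287 in DKS5 hypoxia, 347 and 253 in DKO3 normoxia, and 205 and 352 in DKO3 hypoxia. The lines overlapped, and the difference of -0.20 had an interval from -0.62 to 0.23 (95%; adjusted p = 0.625). All 4 genes lie side by side on chromosome 10: IFIT2, IFIT3, IFIT1 and IFIT5 in that order, with 1 other protein-coding gene between IFIT3 and IFIT1. The second probe sets of IFIT2 and IFIT3, which were dimmer, differed by -1.13 and -0.96, also lower in DKS5.

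SAMD9, an antiviral factor that restricts poxviruses, had the smallest p of the 27 tested members. Its signals were 450 and 435 in DKS5 normoxia, 393 and 481 in DKS5 hypoxia, 1616 and 1468 in DKO3 normoxia, and 1270 and 1449 in DKO3 hypoxia. These signals were far above the filter, and the groups within a line were close together. The difference was -1.69 ± 0.14 (3.22-fold; adjusted p = 2.10e-06), and the dimmer probe set of SAMD9 differed by -0.92. SAMD9L, its neighbour and paralogue on chromosome 7, was below the filter on each of its 3 probe sets. The one used had signals of 4.95 to 11.4, and another had 0.428 to 4.66 in DKS5 and 6.39 to 17.7 in DKO3 with no overlap (log2 difference -0.68, not tested).

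RSAD2 encodes viperin, an enzyme that makes a chain-terminating nucleotide, and CMPK2, next to it on chromosome 2, encodes a mitochondrial nucleotide kinase. RSAD2 had 17.4 and 15.6 in DKS5 normoxia, 20.9 and 11.8 in DKS5 hypoxia, 58.0 and 62.5 in DKO3 normoxia, and 50.3 and 60.4 in DKO3 hypoxia. The lines did not overlap, and the difference was -1.19 ± 0.18 (2.28-fold; adjusted p = 0.000372). CMPK2 had 508 and 314 in DKS5 normoxia, 341 and 359 in DKS5 hypoxia, 837 and 654 in DKO3 normoxia, and 483 and 674 in DKO3 hypoxia. Here 1 DKS5 array (508) exceeded 1 DKO3 array (483), and the difference was -0.77 ± 0.19 (1.71-fold; adjusted p = 0.0153). The CMPK2 call was lost without DKS5 normoxia replicate 2, DKO3 normoxia replicate 1 or DKO3 hypoxia replicate 2, with an adjusted p of at most 0.109 in those and all other alternatives.

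Of the genes of ISG15 conjugation, 1 of 4 was lower. HERC6, a HECT-type ligase of the family that attaches ISG15, had 802 and 791 in DKS5 normoxia, 844 and 854 in DKS5 hypoxia, 1505 and 1275 in DKO3 normoxia, and 1596 and 1325 in DKO3 hypoxia. All DKO3 arrays were higher, and the difference was -0.78 ± 0.14 (1.71-fold; adjusted p = 0.00175). HERC5, the main ISG15 ligase in human cells and the neighbour of HERC6 on chromosome 4, had 134 to 212 in DKS5 and 110 to 172 in DKO3. Its difference had the opposite sign, at 0.35 (adjusted p = 0.334). ISG15 itself ran from 127 to 178 in DKS5 and from 154 to 296 in DKO3, with a difference of -0.61 (adjusted p = 0.0693). USP18, which removes ISG15 and dampens the interferon receptor, had 108 to 124 in DKS5 and 136 to 157 in DKO3. Its arrays did not overlap between the lines, but the difference of -0.31 did not pass (adjusted p = 0.289).

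The oligoadenylate synthetases make the messenger that activates RNase L, and 1 of the 3 tested was lower. OAS2 had 11.7 and 1.32 in DKS5 normoxia, 7.11 and 15.0 in DKS5 hypoxia, 36.0 and 30.5 in DKO3 normoxia, and 30.0 and 20.9 in DKO3 hypoxia. The DKS5 signals were mostly below the brightness filter, so the difference of -0.89 ± 0.20 (1.86-fold; adjusted p = 0.00870) rests on low values. It was lost without DKS5 normoxia replicate 2 (adjusted p = 0.0591) or DKO3 hypoxia replicate 1 (adjusted p = 0.0563). The other probe sets of OAS2, below the filter by their means, differed by -0.25 and -0.23 and overlapped between the lines. OAS1 had 60.3 to 80.7 in DKS5 and 68.5 to 134 in DKO3, with a difference of -0.34 (adjusted p = 0.266). OAS3 was far above the filter, at 916 to 1186 in DKS5 and 874 to 1318 in DKO3, and had the smallest difference of the tested members, 0.04 with an interval from -0.29 to 0.37. The 3 genes are direct neighbours on chromosome 12. OASL, a catalytically inactive relative, was below the filter at 2.67 to 13.4. Its other probe set, also below the filter by its mean, had 2.09 to 7.31 in DKS5 and 4.27 to 22.9 in DKO3 (log2 difference -0.58, not tested).

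PARP9 and PARP14, ADP-ribosyltransferases that modulate interferon signalling, were both lower in DKS5. PARP9 had 433 and 498 in DKS5 normoxia, 421 and 370 in DKS5 hypoxia, 798 and 649 in DKO3 normoxia, and 574 and 735 in DKO3 hypoxia. PARP14 had 448 and 455, 292 and 279, 614 and 565, and 458 and 651 in the same order. On both genes the lines did not overlap. The differences were -0.66 ± 0.16 for PARP9 (adjusted p = 0.0165) and -0.63 ± 0.16 for PARP14 (adjusted p = 0.0212). The dimmer probe set of PARP9 differed by -0.21 with overlap between the lines, and that of PARP14 by -0.44 without overlap. PARP9 was not called without DKS5 normoxia replicate 1, DKO3 normoxia replicate 1 or DKO3 hypoxia replicate 2, nor with the mean of its probe sets, and the largest adjusted p was 0.0985. PARP14 was not called without either DKS5 normoxia array, either DKO3 normoxia array or DKO3 hypoxia replicate 2, and the largest adjusted p was 0.154.

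Of the RNA helicases, DDX60, a cofactor of RNA sensing, was lower, and the sensor IFIH1 (MDA5) was not called. DDX60 had 42.0 and 71.4 in DKS5 normoxia, 50.3 and 40.9 in DKS5 hypoxia, 127 and 77.6 in DKO3 normoxia, and 76.2 and 88.2 in DKO3 hypoxia. The highest DKS5 array (71.4) lay just under the lowest DKO3 array (76.2), and the difference of -0.69 ± 0.20 was the nearest to the threshold (adjusted p = 0.0440). It was lost in 8 of 17 alternatives, among them leaving out DKS5 normoxia replicate 1, DKS5 hypoxia replicate 2, DKO3 normoxia replicate 1 or either DKO3 hypoxia array, and its largest adjusted p was 0.222. IFIH1 had 271 to 488 in DKS5 and 270.4 to 515 in DKO3 (log2 difference 0.15; adjusted p = 0.706). Its other probe sets, dimmer but above the filter, had the opposite sign, at -0.41 and -0.18, with overlap between the lines.

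IFI6, a membrane protein of mitochondria and endoplasmic reticulum that protects infected cells, had 73.7 and 115 in DKS5 normoxia and 108 and 184 in DKS5 hypoxia. In DKO3 it had 137 and 414 in normoxia and 288 and 491 in hypoxia. Within each group its 2 arrays differed widely, and DKO3 normoxia replicate 1 (137) lay inside the DKS5 range. Its difference was -1.28 ± 0.29 (2.43-fold; adjusted p = 0.00994). It was -0.91 without DKO3 normoxia replicate 2 (adjusted p = 0.0526) and -1.10 without DKO3 hypoxia replicate 2 (adjusted p = 0.0598), and with no filter the adjusted p was 0.0668. IFI35, IFI27 and EPSTI1 were dim, at 6.77 to 36.8, 13.4 to 36.8 and 13.7 to 41.3 over the 8 arrays, and did not pass.

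No tested transcription factor or MX gene passed. IRF9, the DNA-binding subunit of the interferon factor, had 51.2 to 75.8 in DKS5 and 60.7 to 113 in DKO3 (log2 difference -0.20; adjusted p = 0.596). IRF7, which drives interferon-alpha genes, differed by -0.15 (adjusted p = 0.677), and IRF1, the factor of the interferon-gamma response, by -0.20 (adjusted p = 0.595). The dimmer probe set of IRF1, also above the filter, differed by -0.66, with overlap between the lines. MX1 and MX2, GTPases that trap viral capsids, had 16.1 to 34.8 and 6.92 to 40.4, with differences of 0.27 and -0.23 (adjusted p = 0.419 and 0.561). IRF1, MX1 and MX2 were dim. IRF9 and IRF7 were well above the filter, IRF7 with 46.4 to 80.7 in DKS5 and 61.7 to 85.7 in DKO3. The values of each of these genes overlapped between the lines.

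Among the 7 members below the filter, TRIM22, an antiviral ubiquitin ligase, had 0.39 to 2.67 in DKS5 and 9.55 to 14.2 in DKO3 with no overlap. IFI44L had 3.87 to 6.43 in DKS5 and 0.496 to 3.32 in DKO3, with DKS5 the higher. BST2 (tetherin) had 1.26 to 9.90, IFI44 0.465 to 9.06 and XAF1 6.38 to 18.2 over the 8 arrays. Signals this low carry no test here.

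Promoters of some members that were lower in DKS5 are shown because many interferon-stimulated genes share a response element there. The sequences are from RefSeq (GRCh38.p14), which had promoters for 28 of the 35 members. The 160 bases before the start of each gene are given from 5′ to 3′ on the strand of the gene. Capitals mark each match to GAAANNGAAA (N is any base), the core of the element, on either strand, so a match on the opposite strand reads as its reverse complement. Overlapping matches were counted separately. The first 4 are the members with the smallest p among those with a promoter that held a match. RSAD2 and HERC6 held no match, and IFIT2 and OAS2 had no promoter in this source. OAS3 is the tested member whose levels differed least.
SAMD9, chr7:93117980-93118139, minus strand: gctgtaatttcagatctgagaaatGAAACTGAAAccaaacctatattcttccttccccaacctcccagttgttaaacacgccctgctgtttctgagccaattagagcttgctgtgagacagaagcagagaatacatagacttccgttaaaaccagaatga
IFIT3, chr10:89327837-89327996, plus strand: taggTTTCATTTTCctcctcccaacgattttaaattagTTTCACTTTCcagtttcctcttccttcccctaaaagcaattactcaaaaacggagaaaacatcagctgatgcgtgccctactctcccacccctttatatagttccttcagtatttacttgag
IFIT1, chr10:89392463-89392622, plus strand: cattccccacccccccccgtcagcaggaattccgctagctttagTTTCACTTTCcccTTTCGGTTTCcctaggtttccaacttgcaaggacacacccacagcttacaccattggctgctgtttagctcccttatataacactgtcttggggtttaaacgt
IFI6, chr1:27672193-27672352, minus strand: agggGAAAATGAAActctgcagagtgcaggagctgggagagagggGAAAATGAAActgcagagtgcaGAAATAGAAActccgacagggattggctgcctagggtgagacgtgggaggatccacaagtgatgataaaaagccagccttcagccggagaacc
OAS3, chr12:112938314-112938473, plus strand: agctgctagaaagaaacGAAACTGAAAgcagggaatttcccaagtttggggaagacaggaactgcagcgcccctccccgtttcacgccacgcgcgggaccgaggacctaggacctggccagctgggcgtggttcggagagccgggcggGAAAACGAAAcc

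In the 250 bases before the start, 16 of the 28 members with a promoter held a match (57.1%), against 2.30% of the 10345 tested genes with one and 3.07% of all 27305 promoters. SAMD9 held 1 match, whose first base lies 136 bases before the start. IFIT3 and IFIT1 held 2 each, at 156 and 122 bases and at 116 and 103 bases. IFI6 held 3, at 156, 115 and 93 bases, and OAS3 held 2, at 143 and 12 bases. The share was 60.0% among the lower members (6 of 10) and 58.3% among tested members that were not called (7 of 12), so these letters were about as frequent in both. Among all 624 genes with a promoter that were lower in DKS5, 4.81% held the motif. A match describes the sequence only.

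Members were called between the lines at each oxygen level. In normoxia 7 members were lower in DKS5 and 0 higher, against 1.84% of all genes lower and 2.54% called in either direction. These were SAMD9 (log2 difference -1.76; adjusted p = 0.000125), IFIT1 (-1.89; 0.000623), IFIT3 (-1.70; 0.000876), IFIT2 (-2.20; 0.00127), RSAD2 (-1.23; 0.0122), OAS2 (-1.17; 0.0356) and HERC6 (-0.79; 0.0427). In hypoxia 7 were lower and 0 higher, against 2.98% of all genes lower and 4.38% in either direction. These were IFIT3 (-2.06; 0.000156), SAMD9 (-1.61; 0.000289), IFIT1 (-1.71; 0.00119), IFIT2 (-1.69; 0.00816), RSAD2 (-1.15; 0.0155), HERC6 (-0.77; 0.0366) and PARP14 (-0.90; 0.0382). At both levels 6 genes were called, 6 of 7 in each list, while OAS2 passed in normoxia and PARP14 in hypoxia. The counts depend on single arrays. In normoxia 4 were called without DKS5 normoxia replicate 2 or DKO3 normoxia replicate 2. In hypoxia 4 were called without DKS5 hypoxia replicate 2, and 3 without either DKO3 hypoxia array. With the ACTB covariate 5 were called in normoxia. In hypoxia the ACTB ratios did not overlap between the lines, and 128 of all tested genes were called with the covariate, against 558 without. Of the members 2 were called, IFIT3 and SAMD9, while IFIT1 and IFIT2 had adjusted p = 0.0792 and 0.233. Averaged over oxygen levels, 7 were called without DKO3 hypoxia replicate 2. IFIT1, IFIT2, IFIT3 and SAMD9 in normoxia, and IFIT3 and SAMD9 in hypoxia, were called in each alternative in which they were tested. The other calls at a single oxygen level were each lost in 1 or more. Averaged over oxygen levels, SAMD9, IFIT1, IFIT2, IFIT3, RSAD2 and HERC6 were called in each alternative in which they were tested.

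The ratio of 3′ to 5′ signal moved with the line, and its part in the difference was not tested beyond a fit with the log2 ACTB ratio as a covariate. In that fit 6 of the 27 members were lower, against 2.52% of all genes, and 0 higher. IFIT3 differed by -2.02 (adjusted p = 0.000390), SAMD9 by -1.67 (0.000739), IFIT1 by -1.68 (0.00297), IFIT2 by -1.75 (0.0112), RSAD2 by -1.28 (0.0129) and HERC6 by -0.88 (0.0303). Their differences stayed close to those without the covariate. IFI6 differed by -0.31 (adjusted p = 0.636), against -1.28 without the covariate. CMPK2 (-1.02; 0.0556), OAS2 (-0.97; 0.106) and DDX60 (-0.91; 0.111) kept differences at least as large but were not called, and neither were PARP9 (-0.80; 0.0885) and PARP14 (-0.69; 0.154).

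**Figure D2:**
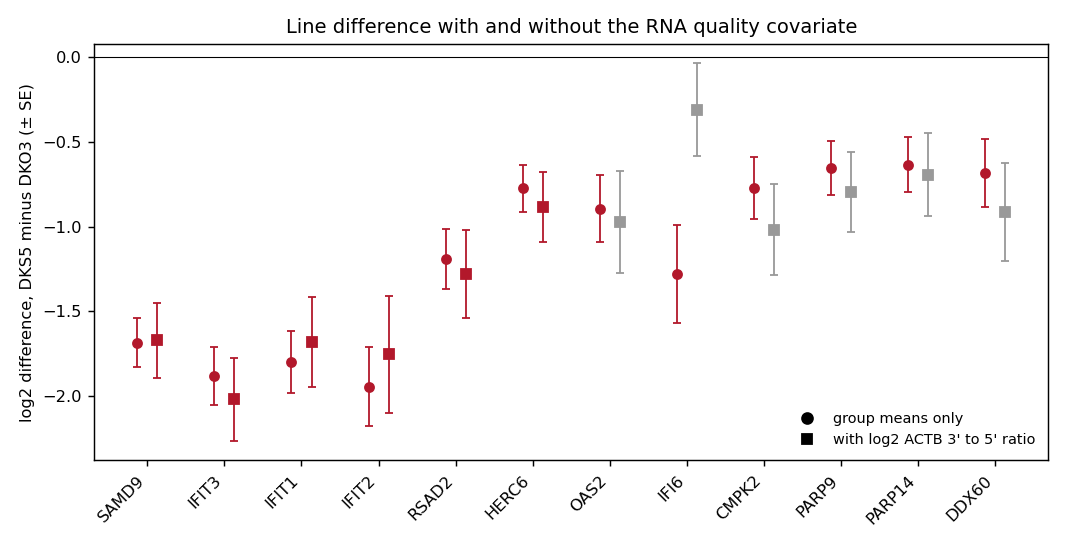
Log2 difference between the lines (DKS5 minus DKO3) with its SE for 12 members, as circles for the fit of group means and squares for the fit with the log2 ACTB 3′ to 5′ ratio added, in red where the adjusted p was under 0.05 and grey otherwise. IFI6 moves from -1.28 to -0.31, while IFIT1, IFIT2, IFIT3, SAMD9, RSAD2 and HERC6 stay red in both fits.

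The other question was whether 12 h of low oxygen changed these genes, and no member was called. None of the 27 tested members passed in DKS5, where 0.503% of all genes did, or in DKO3, where 0.346% did. None passed averaged over both lines (1.19% of all genes) or in the difference of the responses (0% of all genes). At an unadjusted p under 0.05, limma gave 3 members in DKS5, 3 in DKO3, 5 averaged and 0 for the difference of the responses. The shares of all genes above are at an adjusted p, so these counts cannot be set beside them. The share of all genes at the unadjusted threshold is not given here. In the average over lines, 26 of 27 members had a 95% interval of the hypoxia effect within 1 log2 unit of 0, IFI6 being the exception. For the response in 1 line this held for 22 in DKS5 and 20 in DKO3, so 2-fold effects were not bounded for the remaining members. The ACTB ratio also fell from normoxia to hypoxia in DKO3 (49.0 and 14.9 to 11.47 and 11.02), and with it as a covariate the count was 0 too.

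Single members moved in ways that did not pass. IFI35, a partner protein of NMI, went from 7.83 and 6.77 to 20.8 and 15.6 with hypoxia in DKS5, and from 15.4 and 11.6 to 23.6 and 36.8 in DKO3. The hypoxia arrays were higher in both lines, with a mean log2 difference of 0.59 (adjusted p = 0.135). MX2 had 11.7 and 17.3 against 22.3 and 24.3 in DKS5, and 25.9 and 6.92 against 33.3 and 40.4 in DKO3, a difference of 0.57 (adjusted p = 0.211). IFIH1, in contrast, went from 452 and 488 to 344 and 271 in DKS5 and from 515 and 316 to 270.4 and 306 in DKO3, a difference of -0.53 (adjusted p = 0.202). PARP14 was lower in hypoxia in DKS5, from 448 and 455 to 292 and 279, by -0.63 (adjusted p = 0.583). On its dimmer probe set, also above the filter, the difference in DKS5 was -0.06. OAS1 in DKO3 went from 68.9 and 68.5 to 134 and 116, by 0.73 (adjusted p = 0.314), and by 0.34 on its dimmer probe set. In DKS5 it had 60.3 and 80.7 in normoxia and 67.9 and 73.7 in hypoxia, and the difference of the responses was -0.72, with an interval from -1.46 to 0.02. The other members with small p were IFIT2 (0.69), IRF7 (0.36) and IFI6 (0.54) in DKS5 and EPSTI1 (0.54), IFIH1 (-0.47) and ISG15 (0.46) in DKO3, none with an adjusted p under 0.476. For the difference of the responses they were EPSTI1 (-0.61), PARP14 (-0.53), OAS2 (0.55), ISG15 (-0.47) and OAS3 (-0.37).

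For the 6 genes with the largest line difference, the hypoxia effect averaged over both lines was 0.20 for IFIT1 (interval -0.19 to 0.59), 0.15 for IFIT3 (-0.21 to 0.52), -0.10 for SAMD9 (-0.41 to 0.20) and -0.06 for RSAD2 (-0.43 to 0.31). IFIT2 had 0.43 (-0.06 to 0.93). IFI6 had the widest, 0.58 (-0.04 to 1.19). Each of the 6 intervals included 0.

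**Figure D3:**
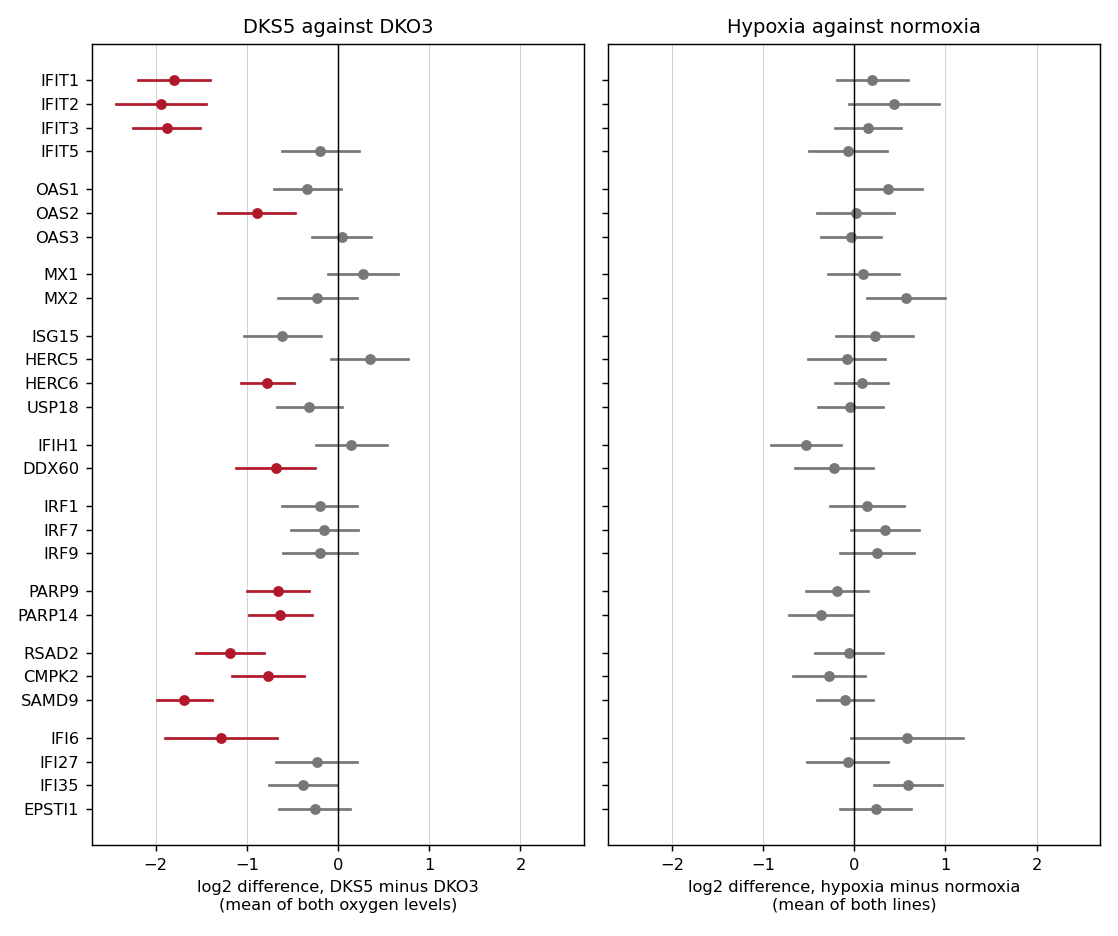
Log2 differences with 95% intervals for the 27 tested members, ordered by role: DKS5 minus DKO3 averaged over oxygen levels in the left panel, hypoxia minus normoxia averaged over lines in the right panel, red where the adjusted p was under 0.05. On the left 12 members are red and all lie below 0, and on the right none is red.

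The genes upstream of these members were given by lists that hold none of the 35. Of 10 interferon ligand genes, 9 had a probe set and 1, IFNK, was bright enough to test (log2 difference 0.03). Of 18 receptor and JAK-STAT genes, 16 were tested and 1 was lower in DKS5 (6.25%, beside 6.14% of all tested genes), with a list median of -0.13. That gene was JAK2, the kinase of the interferon-gamma receptor, with 43.2 and 42.8 in DKS5 normoxia, 16.4 and 32.0 in DKS5 hypoxia, 82.7 and 90.5 in DKO3 normoxia, and 76.8 and 61.6 in DKO3 hypoxia. Its difference was -0.95 ± 0.18 (adjusted p = 0.00353), and it was not called with the mean of its probe sets or with the ACTB covariate. The type I receptor genes IFNAR1 and IFNAR2 differed by -0.19 and 0.05 (adjusted p = 0.602 and 0.923).

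Of 17 genes of nucleic acid sensing and interferon induction, 12 were tested and 1 was lower (8.33%, beside 6.14% of all tested genes), with a median of -0.20. TLR3, the endosomal sensor of double-stranded RNA, had 88.1 and 131 in DKS5 normoxia, 157 and 85.3 in DKS5 hypoxia, 291 and 305 in DKO3 normoxia, and 383 and 406 in DKO3 hypoxia. The lines did not overlap, and the difference was -1.49 ± 0.20 (adjusted p = 0.000160), called in 17 of 17 alternatives. The cytosolic RNA sensor gene RIGI missed the threshold at -0.56 (adjusted p = 0.0505). Its adaptor gene MAVS differed by -0.29 (adjusted p = 0.331).

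A further list of 44 interferon-stimulated genes outside the 35 pointed the same way. This list too was chosen with earlier results of these data known, so it is no independent support. Of 31 tested, 7 were lower in DKS5 and 0 higher (22.6%, beside 6.14% of all tested genes lower), 30 had a negative difference and the median was -0.33, beside 51.5% of all genes with a negative difference. APOL6, an interferon-induced apolipoprotein L gene, had 110 and 121, 101 and 94.9 in DKS5 and 317 and 328, 267 and 376 in DKO3, normoxia first. It differed by -1.46 (adjusted p = 4.97e-05) with no overlap. LGALS3BP, a secreted glycoprotein, differed by -1.54 (adjusted p = 0.000279), and UBE2L6, the conjugating enzyme that hands ISG15 to its ligases, by -1.08 (adjusted p = 0.000956). UBE2L6 had 68.4 to 80.8 in DKS5 and 134 to 199 in DKO3. TRIM21, NMI, SHFL and GBP3 differed by -0.85, -0.60, -0.74 and -0.65 (adjusted p = 0.00705, 0.0115, 0.0255 and 0.0268). They were called in 15, 14, 9 and 10 of 17 alternatives, LGALS3BP in 16, and APOL6 and UBE2L6 in all 17. DTX3L, the partner of PARP9, differed by -0.27 (adjusted p = 0.472), and the sensor kinase gene EIF2AK2 by -0.07. With the ACTB covariate, APOL6, NMI and UBE2L6 were called. In hypoxia against normoxia, none of these lists had a called gene in either line.

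**Figure D4:**
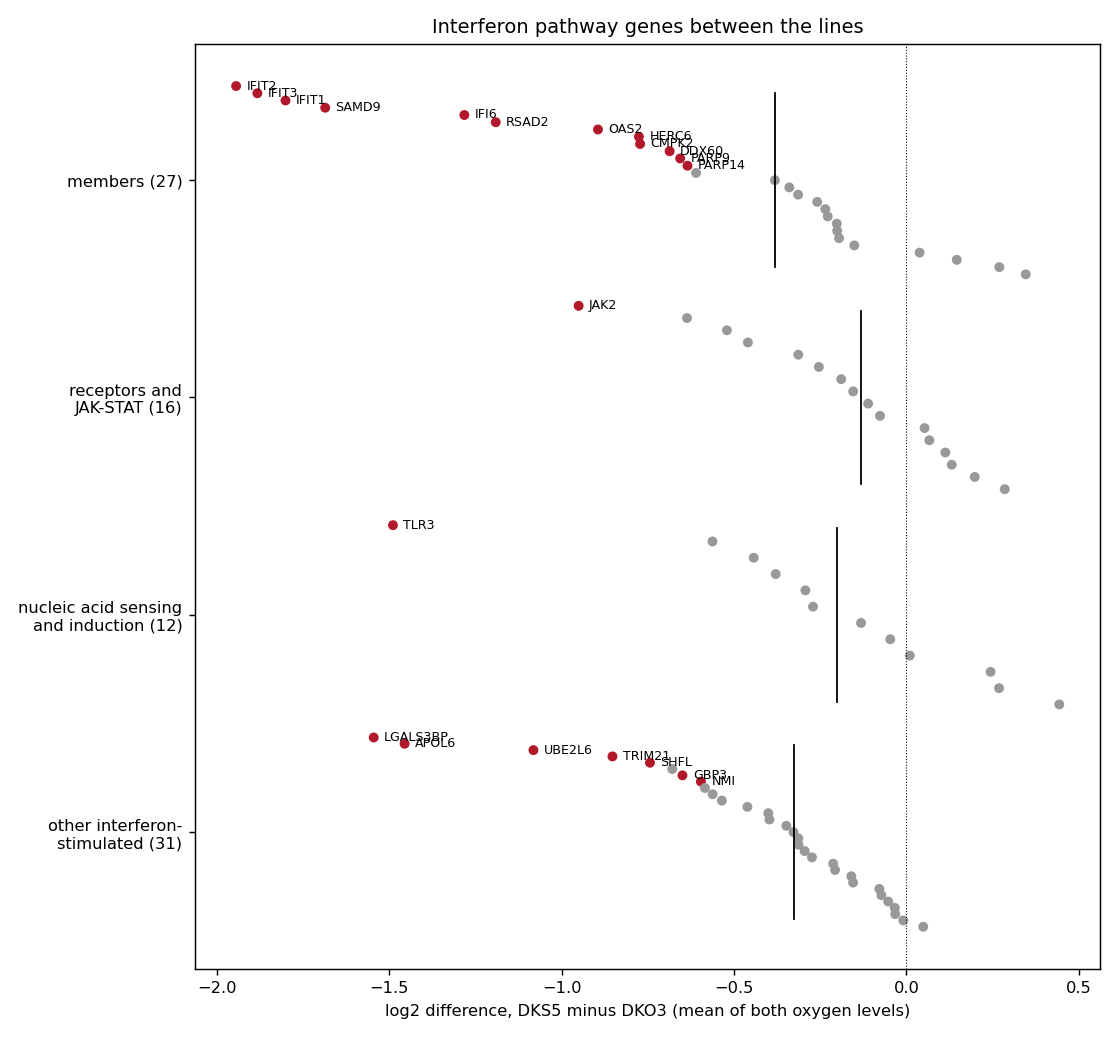
Log2 difference between the lines (DKS5 minus DKO3, averaged over oxygen levels) for the tested genes of 4 lists, with 1 point per gene, a black line at the list median and red points where the adjusted p was under 0.05. The medians are -0.38 for the members, -0.13 for receptors and JAK-STAT genes, -0.20 for sensing genes and -0.33 for the other interferon-stimulated genes.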

How the data were processed

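The deposited values were probe set signals, an intensity on a linear scale, made by the authors with MAS5 per the submitters' processing notes from 8 HG-U133 Plus 2.0 arrays. Version and target of MAS5: not given in the sources used here. Amplification and labelling used NuGEN kits, per the labels' protocols. The 2% trimmed means (133 to 202, 1.52-fold apart) exceeded a 10% tolerance, so each array was scaled to their median, 172.9. Of 54675 probe sets, 62 controls were left out, 41091 had 1 gene symbol and 1801 several. Columns of per-sample values not used numbered 0.

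Values were log2(signal + 16), so fold changes understate dim genes. Genes whose mean exceeded the 40th percentile over probe sets entered the fit, made with limma 3.58.1 (R 4.3.3; 1 mean per group over the 8 arrays; 7 contrasts; trended eBayes; two-sided p adjusted by Benjamini-Hochberg over all genes tested, threshold 0.05; 4 residual and 11.3 prior degrees of freedom). The fit was tested on simulated data. Intervals are 95%. The contrasts share arrays. The members and lists were chosen with earlier results of these data known. Named were all members called, otherwise up to 6 with the smallest p, and of other lists those called between the lines and up to 4 with the smallest p, while the hypoxia genes are given by count. EIF2AK2, DTX3L, MAVS, IFNAR1, IFNAR2 and EPCAM were named after their values were seen. Alternatives were other scaling, pseudocounts of 1 and 64, no filter and the 60th percentile, the mean of a gene's probe sets, the ACTB covariate, a replicate block, fits of the compared arrays alone and leaving out each array.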

Additional observations from a re-analysis of the deposited data

How the results depend on the processing

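In each alternative run, the members called between the lines were lower in DKS5, and 0 passed in any hypoxia comparison or in the difference of the responses. Averaged over oxygen levels, 12 members were called in the main setting, 6 with the ACTB covariate and 7 to 13 when 1 array was left out. In normoxia (7), 4 were called with no filter, 4 with the filter at the 60th percentile, 4 with the mean of a gene's probe sets, and 4 to 7 when 1 array was left out. In hypoxia (7), 14 were called with no array scaling, 3 with no filter, 2 with the ACTB covariate and 3 to 7 when 1 array was left out. Leaving out 1 array gave 0 members in each hypoxia comparison. A group left with 1 array is assumed to vary like the others. At the 60th percentile IFIT3, RSAD2 and OAS2 were under the filter and not tested, so their normoxia calls were not examined there. Among all tested genes, 2383 were called between the lines in hypoxia with no array scaling. With the ACTB covariate 128 were called, and 558 in the main setting. Averaged over oxygen levels the numbers were 1774, 446 and 1161 in the same order. Without array scaling the median of all genes moved from -0.03 to -0.42 between the lines in hypoxia and from -0.01 to -0.21 averaged, and the share of lower calls from 68.1% to 97.4% and from 67.4% to 92.3%. Before scaling, the trimmed means were 133 and 157 in DKS5 hypoxia and 202 and 195 in DKO3 hypoxia. The hypoxia difference of IFI6 averaged over lines was 0.58 and turned to -0.016 with the ACTB covariate. The cause of these changes was not tested.

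Numbers of genes called among all tested ranged from 29 to 294 for hypoxia in DKS5 (64), 1 to 92 in DKO3 (44), 58 to 764 averaged (152), 119 to 455 between the lines in normoxia (324), 128 to 2383 in hypoxia (558) and 446 to 1774 averaged (1161). Leaving out DKS5 hypoxia replicate 1 gave the 294 and the 764, and leaving out DKO3 hypoxia replicate 1 gave the 1 and the 58.

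Deviations of same-numbered arrays correlated by 0.10, 0.21, 0.04, 0.04, 0.33 and -0.09 over the 6 pairs of groups, so a pairing by number was not established for all groups. With the replicate block, 8 members were called between the lines in normoxia, 8 in hypoxia and 13 averaged, and 0 in the hypoxia comparisons. Signals near the filter limit what the dim members can show.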
